A study of Mus musculus with 47 samples.

Results

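The genes described here are the chromosomal neighbours of Mybpc2, which encodes the fast-type myosin binding protein C of skeletal muscle (fMyBP-C). They were chosen by position alone, as every other gene whose exons lie on mouse chromosome 7 only and whose lowest exon start falls between 43500000 and 45200000 of the mm10 build. The rule found 105 of the 24421 genes in the count tables. Of these, 67 had a count in at least 1 fibre and 35 were expressed, taken as a mean of at least 1 CPM (counts scaled to a total of 1e6 gene counts) over the 47 fibres. RNA was measured in single muscle fibres from a fast muscle of the lower hindlimb, the extensor digitorum longus (EDL), of FVB/N mice at 2 to 3 months of age. There were 27 wild-type (WT) fibres from 3 mice and 20 fibres without Mybpc2 (C2KO) from 2 mice. In the C2KO allele exons 2 to 22 of Mybpc2 are replaced by a neomycin resistance (Neo) cassette between LoxP sites, and the labels give no Cre to either group. No treatment is named for either group, and no label ties a fibre to a mouse.

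fMyBP-C is a thick filament protein of fast fibres that binds myosin and actin and tunes cross-bridge cycling. Its gene lies in a gene-dense stretch of chromosome 7. On the side of lower coordinates stand the kallikreins, a cluster of secreted serine protease genes, and on the other side a run of broadly used genes for ribosomes, transcription, signalling and membrane traffic. Since the replaced exons and the cassette sit between these genes, the comparison asks whether any neighbour of the deleted gene had another level in C2KO fibres, and whether this went with distance.

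Fibres of 1 mouse are not independent, so counts were summed into 5 pools: WT pools 1, 2 and 3 (10, 10 and 7 fibres, each from 1 sequencing run) and the C2KO pools 2445 and 740 (10 fibres each, named by the prefix of the fibre name). Where values of both C2KO pools are given, 2445 comes first unless the pools are named. Levels per pool are CPM after TMM scaling, levels per fibre are plain CPM, and fold changes are C2KO over WT from edgeR's quasi-likelihood test, with p-values adjusted over all genes tested by the method of Benjamini and Hochberg. Called genes are those with a fold beyond 1.5 either way whose adjusted p was below 0.05. Each fibre had between 7648762 and 14606631 gene counts. The 6 fast fibre markers (Myh4, Acta1, Ckm, Atp2a1, Tnnt3 and Mylpf) summed to between 225793 and 310566 CPM in every fibre. No pool is known to be a single mouse, so p-values measure the spread between pools. Sequencing run and genotype cannot be told apart, since only run 0092 held both, with 7 WT fibres and 1 C2KO fibre.

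The sequences upstream of the genes on which the results turn are shown from lower to higher coordinates, so that the spacing of the locus can be read beside the values. Each holds the 250 bases before the first transcribed base, 5′ to 3′ on the gene's own strand, from RefSeq on GRCm38.p6 (the mm10 assembly), in which 77 of the 105 neighbours had an entry. Capitals mark every match to the E-box CANNTG or the GC box GGGCGG on either strand. The windows are Lrrc4b (chr7:44442237-44442486, plus strand), 5430431A17Rik (chr7:44484267-44484516, plus strand), Fam71e1 (chr7:44496345-44496594, plus strand), Mybpc2 (chr7:44524670-44524919, minus strand) and Pold1 (chr7:44548816-44549065, minus strand).
Lrrc4b: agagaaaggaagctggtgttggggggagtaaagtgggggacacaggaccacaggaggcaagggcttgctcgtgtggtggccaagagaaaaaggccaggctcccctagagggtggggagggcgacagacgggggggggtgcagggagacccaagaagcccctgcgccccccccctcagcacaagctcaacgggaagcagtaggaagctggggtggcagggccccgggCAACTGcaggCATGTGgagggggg
5430431A17Rik: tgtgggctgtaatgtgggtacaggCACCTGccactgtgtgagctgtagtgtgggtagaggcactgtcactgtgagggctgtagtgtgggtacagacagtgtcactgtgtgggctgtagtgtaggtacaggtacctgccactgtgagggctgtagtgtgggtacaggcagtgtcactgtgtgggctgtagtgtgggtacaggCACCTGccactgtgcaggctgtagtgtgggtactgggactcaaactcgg
Fam71e1: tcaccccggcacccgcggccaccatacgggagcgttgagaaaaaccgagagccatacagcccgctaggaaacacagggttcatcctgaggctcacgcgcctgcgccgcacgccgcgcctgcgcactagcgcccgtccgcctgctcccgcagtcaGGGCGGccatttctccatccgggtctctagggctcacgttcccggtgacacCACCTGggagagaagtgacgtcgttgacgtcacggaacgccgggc
Mybpc2: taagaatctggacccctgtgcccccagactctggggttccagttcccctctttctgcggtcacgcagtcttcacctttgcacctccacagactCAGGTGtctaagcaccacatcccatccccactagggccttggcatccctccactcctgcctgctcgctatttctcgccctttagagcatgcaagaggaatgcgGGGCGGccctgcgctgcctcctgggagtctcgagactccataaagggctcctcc
Pold1: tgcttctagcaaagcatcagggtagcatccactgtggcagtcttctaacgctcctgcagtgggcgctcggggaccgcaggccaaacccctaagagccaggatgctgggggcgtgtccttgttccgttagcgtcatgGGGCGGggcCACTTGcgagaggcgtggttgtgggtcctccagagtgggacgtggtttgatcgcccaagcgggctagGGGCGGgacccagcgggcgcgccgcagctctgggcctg
The Fam71e1 window is shared with Emc10, whose minus-strand transcript starts inside it at position 44496513. The Pold1 window held 2 GC boxes, and the Mybpc2 and Fam71e1 windows held 1 each. Lrrc4b and 5430431A17Rik had no GC box but 2 E-boxes each. E-boxes are common, with a match in 66.2% of the 32851 mouse windows of this length, and GC boxes were found in 32.7%. None of the 5 windows held TATAAA (12.4% of all windows) or CCAAT (33.8%), on either strand. The 5430431A17Rik window is repetitive, and 1 stretch of 12 bases occurs in it 5 times. A match describes letters and shows no bound factor.

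Mybpc2 itself (chr7:44501699-44524669, minus strand) checked the labels. WT fibres held 6563 to 11556 CPM with a median of 9479, and C2KO fibres held 2.61 to 47.6 CPM with a median of 26.1. The groups did not overlap, whereas 0.0544% of the 12863 genes tested had fibres that did not overlap between genotypes. The log2 fold change was -8.55 ± 0.14 (SE, 3 WT and 2 C2KO pools), with an adjusted p of 6.4e-06 in edgeR's test.

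None of the 35 expressed neighbours was called, against 6 of all 12863 genes tested (0.0466%, Mybpc2 included). The lowest adjusted p among them was 0.395 in edgeR's test. At an unadjusted p under 0.05, 2 neighbours were higher in C2KO pools (6.2% of all genes tested) and 1 was lower (4.13%). The higher ones were the noncoding RNA 5430431A17Rik and Pold1, and the lower one was Myh14. All 3 lie within 100 kb of Mybpc2. Both C2KO pools stood above all WT pools for 3 neighbours (13.1% of all genes tested) and below them for 6 (14.5%), and the other 26 overlapped. No expressed neighbour had fibres that separated the genotypes. DESeq2 on the same pools called 5430431A17Rik and Pold1 higher, where 1.03% of all genes were called higher. So did edgeR across single fibres, where 3.08% were, but that fit counts fibres of 1 mouse as independent and is no separate support. limma-voom called none of the 35.

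**Figure D1:**
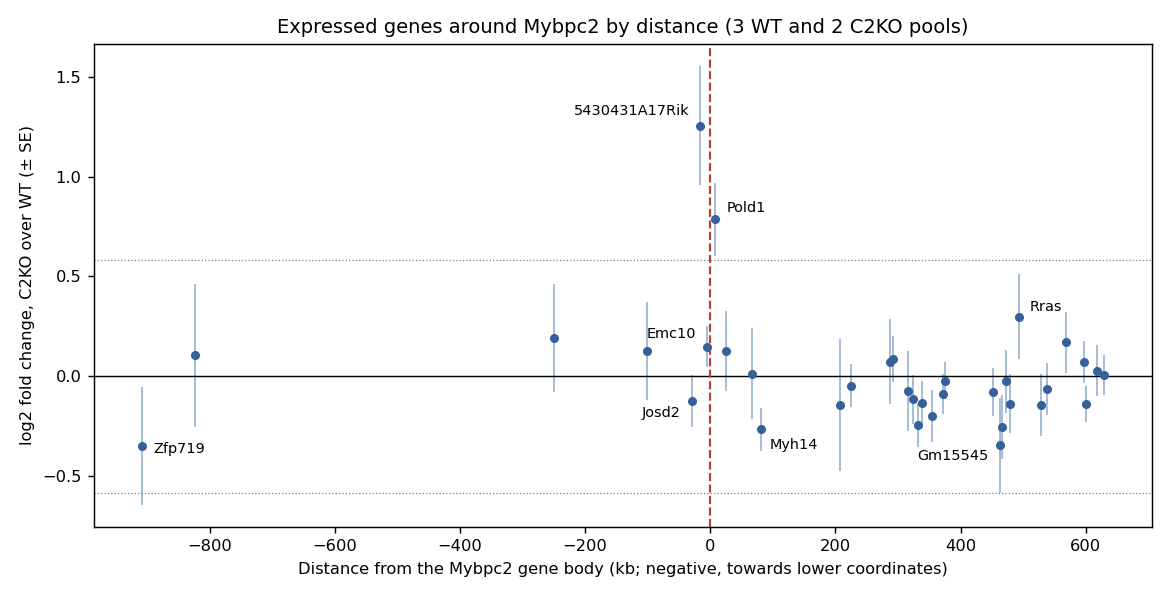
Log2 fold change of the 35 expressed neighbours (vertical axis, C2KO over WT, points with SE bars, 3 WT and 2 C2KO pools) against the distance of each gene from Mybpc2 in kb. The dashed line is Mybpc2 and the dotted lines are a 1.5-fold change, passed by 5430431A17Rik at 1.26 and Pold1 at 0.79, neither of which was called.

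Seen over all 35, the levels were close to those of WT. Higher values in C2KO were found for 15 genes and lower values for 20, and 33 of 35 lay within a 1.5-fold change. The median log2 fold change was -0.05 and the median size of change, without its sign, was 0.13. Over all 10107 expressed genes tested, Mybpc2 left out, these were -0.01 and 0.14, and over the 709 expressed genes of the rest of chromosome 7 they were -0.02 and 0.13. The adjoining window of 1.7 Mb towards lower coordinates held 4 expressed genes, with a median of -0.14, and the one above held 38, with a median of -0.02 and a median size of 0.10. An unadjusted p under 0.05 was found for 8.57% of the expressed neighbours and for 10.8% of all expressed genes. The 95% interval of the fold change lay wholly within 2-fold either way for 32 of the 35 neighbours, and within 1.5-fold for 23. Of the 12 others, 9 had an interval within 2-fold, and those of 5430431A17Rik (0.53 to 1.98), Pold1 and Zfp719 (-1.06 to 0.36) reached beyond it.

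By distance, 7 expressed neighbours lay within 100 kb of Mybpc2, and their median size of change was 0.15. The 6 genes over 100 and up to 300 kb away had 0.11, and the 22 beyond 300 kb had 0.13. The genes at an unadjusted p under 0.05 were 3 of 7 in the nearest class and 0 of 28 farther out. Farther still, in the adjoining window towards higher coordinates, 8 of 38 expressed genes (21.05%) had such a p in edgeR's test. In that window the pools did not overlap for 31.6%. The pools did not overlap for 4 of the 7 nearest genes, 0 of the next 6 and 5 of the last 22, which is 25.7% of the 35, against 28.5% of all expressed genes. These counts describe few genes, and the difference between classes was not tested.

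Pold1, the catalytic subunit of DNA polymerase delta, starts 24.15 kb upstream of the Mybpc2 start, and its gene body ends 8.07 kb from Mybpc2. It is the nearest expressed gene on the side of higher coordinates, transcribed from the same strand towards Mybpc2. Its level was 3.74, 4.82 and 4.24 CPM in WT pools 1, 2 and 3, and 8.24 and 6.50 CPM in C2KO pools 2445 and 740. Both C2KO pools were above all 3 WT pools. In single fibres WT ranged from 1.58 to 7.69 CPM around a median of 3.94, and C2KO from 3.63 to 12.6 around 6.85. The fibres overlapped, with 19 of 20 C2KO fibres above the WT median and 7 above the highest WT fibre, 5 of them of pool 2445. The log2 fold change was 0.79 ± 0.18 (SE, 3 WT and 2 C2KO pools; 1.73-fold, 95% interval 0.34 to 1.23 on the log2 scale), and the adjusted p in edgeR's test was 0.395. DESeq2 gave an adjusted p of 0.0197. The edgeR fit over fibres gave 8.11e-05, with fibres of 1 mouse counted as independent. With sequencing run as a covariate over fibres the value was 0.52 ± 0.52 (SE). No other run held both genotypes, so this value rests on the 1 C2KO fibre of run 0092. In run 0092 the C2KO fibre had 5.88 CPM, within the range of its 7 WT fibres (1.78 to 6.51).

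5430431A17Rik is listed by GENCODE M21 as a long intergenic noncoding RNA and was counted over a plus-strand model at chr7:44484517-44485413, 16.3 kb from Mybpc2. It was at 2.68, 2.57 and 2.34 CPM in WT pools 1, 2 and 3, and at 4.04 and 8.07 CPM in C2KO pools 2445 and 740. The C2KO pools were again above all WT pools, but they differed from each other more than the WT pools did. WT fibres ranged from 1.05 to 4.68 CPM with a median of 2.67. Fibres of pool 2445 had 1.22 to 5.48 CPM, overlapping with WT, while those of pool 740 had 5.34 to 11.4 CPM, and all 10 lay above the highest WT fibre. The share of all genes with such a separation of pool 740 fibres was not counted. By pooled level, pool 740 was above all WT pools for 28.4% of all expressed genes. The log2 fold change was 1.26 ± 0.30 (SE, 3 WT and 2 C2KO pools, 2.39-fold), the largest among the 35, with an adjusted p of 0.399 in edgeR's test. Without pool 740 it was 0.67 (adjusted p = 0.438 in edgeR), and without pool 2445 it was 1.68 and was called (adjusted p = 0.0205 in edgeR). DESeq2 gave an adjusted p of 0.0182. With run as a covariate over fibres it was 1.89 ± 0.56 (SE), a value that rests on the 1 C2KO fibre of run 0092. In run 0092 the C2KO fibre, of prefix 740, had 8.50 CPM and the 7 WT fibres had 1.42 to 3.20.

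**Figure D2:**
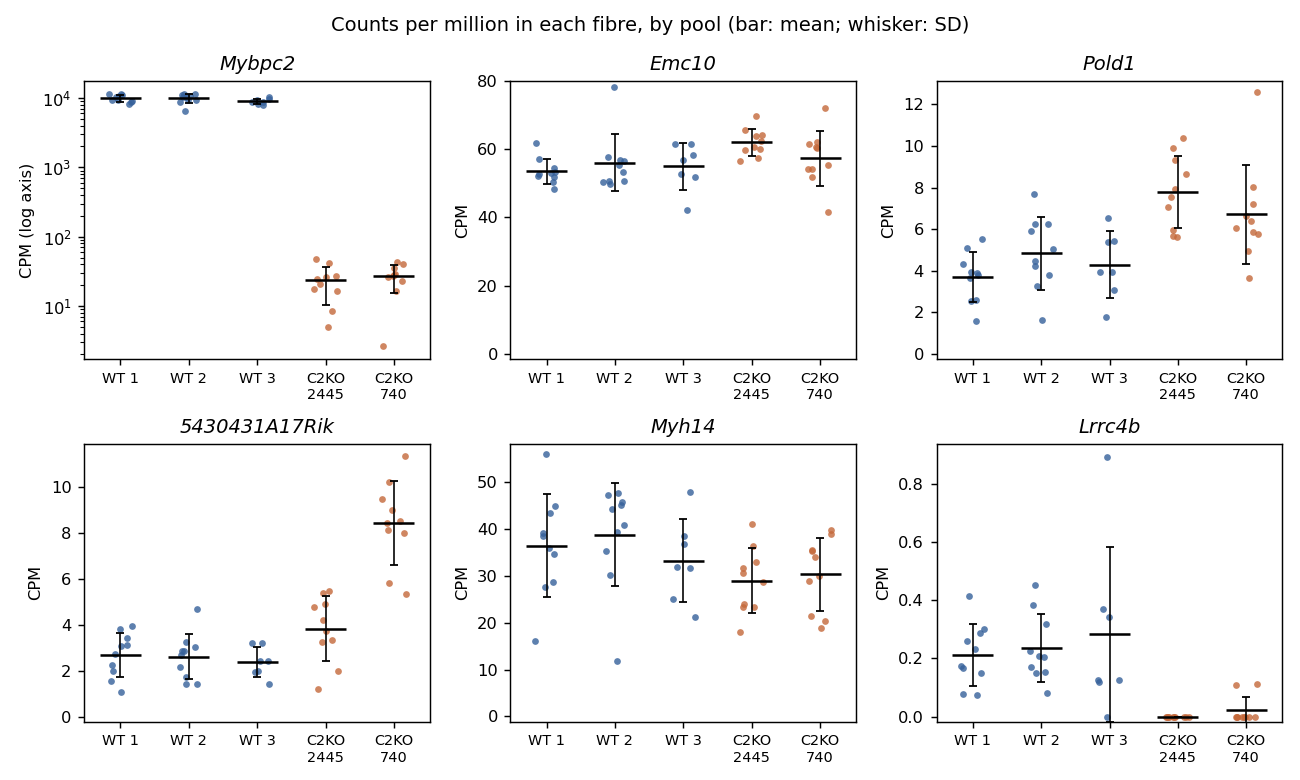
CPM (vertical axes, log for Mybpc2) in each of the 47 fibres by pool for Mybpc2, Emc10, Pold1, 5430431A17Rik, Myh14 and Lrrc4b, with the mean (bar) and SD (whisker) of each pool's fibres. Mybpc2 separates fully, 5430431A17Rik separates in pool 740 (5.34 to 11.4 CPM) and not in pool 2445, and Lrrc4b is near 0 in both C2KO pools.

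Pool 740 also held more counts of markers of other cells. The 7 fibroblast markers (Pdgfra, Col1a1, Col1a2, Col3a1, Dcn, Lum and Gsn) all had counts and summed to 676.7 CPM in pool 740, to 41.7 in pool 2445 and to 45.4, 15.1 and 1.99 CPM in the WT pools. The 6 endothelial markers summed to 13.3 CPM in pool 740 and to 0.581 to 0.972 in the others, and the 6 leukocyte markers to 5.55 and to 0.377 to 1.85. In bulk RNA of a fibre with what adheres to it, more cells of a type and more RNA per cell cannot be told apart. The sum exceeded 100 CPM in 6 fibres, 4 of pool 740, 1 of pool 2445 and 1 of WT pool 1. In pools rebuilt without them, 5430431A17Rik stayed at 8.14 CPM in pool 740 and 4.08 in pool 2445, against 2.32 to 2.75 in the WT pools, and its log2 fold change was 1.26. Pold1 was at 6.09 CPM in pool 740 and 8.44 in pool 2445, against 3.71 to 4.77 in the WT pools, with a log2 fold change of 0.78. Both differences were therefore as large without these fibres.

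Emc10, a subunit of the membrane protein insertion complex of the endoplasmic reticulum, is the expressed gene closest to Mybpc2, 5.18 kb away. It was at 53.9, 55.3 and 54.5 CPM in the WT pools, and at 65.5 and 55.5 CPM in C2KO pools 2445 and 740. The C2KO pools were above all WT pools, pool 740 by a margin of 0.14 CPM. Fibres overlapped, with 42.1 to 78.2 CPM in WT and 41.6 to 72.2 in C2KO. The log2 fold change was 0.15 ± 0.10 (SE, 3 WT and 2 C2KO pools), its 95% interval ran from -0.10 to 0.40, and the adjusted p in edgeR's test was 0.65. Over fibres, with those of 1 mouse counted as independent, edgeR gave an adjusted p of 0.0536.

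Myh14, which encodes the heavy chain of nonmuscle myosin IIC, lies 81.1 kb from Mybpc2 and was the only expressed neighbour lower in C2KO at an unadjusted p under 0.05. It was at 36.7, 38.8 and 32.7 CPM in the WT pools, and at 30.6 and 29.3 CPM in C2KO pools 2445 and 740. The highest C2KO pool was 2.10 CPM below the lowest WT pool, while the fibres overlapped widely, at 11.7 to 55.9 CPM in WT and 18.1 to 40.98 CPM in C2KO. The log2 fold change was -0.27 ± 0.11 (SE, 3 WT and 2 C2KO pools), with an adjusted p of 0.476 in edgeR's test. It stayed below 0 in every alternative (-0.589 to -0.211), but its unadjusted p of 0.0466 lay close to the limit. In edgeR's test it was 0.0509 with RLE normalization and 0.0555 without the C2KO fibre of run 0092. Without WT pool 1, 2 or 3 it was 0.106, 0.133 and 0.0231. The unadjusted p was 0.0393 by limma-voom and 0.032 by DESeq2.

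The other expressed genes within 100 kb showed no difference beyond the spread of the pools. Nr1h2, the oxysterol receptor LXR beta, was at 40.6, 44.1 and 41.8 CPM in the WT pools, and at 57.02 and 34.9 in C2KO pools 2445 and 740. The C2KO pools thus lay on either side of WT, and every fibre of pool 2445 (47.8 to 66.3 CPM) was above every fibre of pool 740 (17.2 to 46.8 CPM). Its log2 fold change was 0.12 ± 0.20 (SE), with a 95% interval of -0.36 to 0.61. Josd2, a Josephin-domain deubiquitinase, was at 30.4 to 35.01 CPM in WT, and at 33.3 and 26.8 in C2KO pools 2445 and 740.

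Farther out on the side of lower coordinates, Syt3, a synaptotagmin, was 102 kb away and read 9.60 to 12.7 CPM in WT pools, with 15.7 and 9.21 in C2KO pools 2445 and 740. 2410002F23Rik was at 2.71 to 3.69 CPM in WT and at 2.75 and 4.46 in the same C2KO pools. For both genes, one C2KO pool was within the WT range or below it and the other was above. Zfp719, a zinc finger gene 908 kb away, had the third largest change of the 35, at -0.35 ± 0.30 (SE), with pools of WT at 2.21 to 4.13 CPM and of C2KO at 2.35 and 2.58. Ctu1, which acts in tRNA thiolation, was just inside the limit for expressed genes with a mean of 1.05 CPM, as was Zfp473 on the other side with 1.07. Just outside it were Rcn3 with 0.519 and Prr12 with 0.491 CPM.

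The most abundant neighbours lay over 300 kb away on the side of higher coordinates. Ptov1 had the most counts, at 181.6, 184.1 and 177.0 CPM in WT pools, and 183.1 and 145.9 in C2KO pools 2445 and 740. Akt1s1, which encodes the mTORC1 component PRAS40, was at 117.8 to 130.7 CPM in WT, and at 125.2 and 100.3 in the C2KO pools. In both genes pool 2445 was within the WT range and pool 740 below it. Med25, a Mediator subunit, was at 64.2 to 81.9 CPM in WT and at 68.0 and 62.4 in C2KO. Ap2a1, a subunit of the clathrin adaptor AP-2, was at 70.0 to 79.1 CPM in WT and at 74.2 and 73.2 in C2KO.

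**Figure D3:**
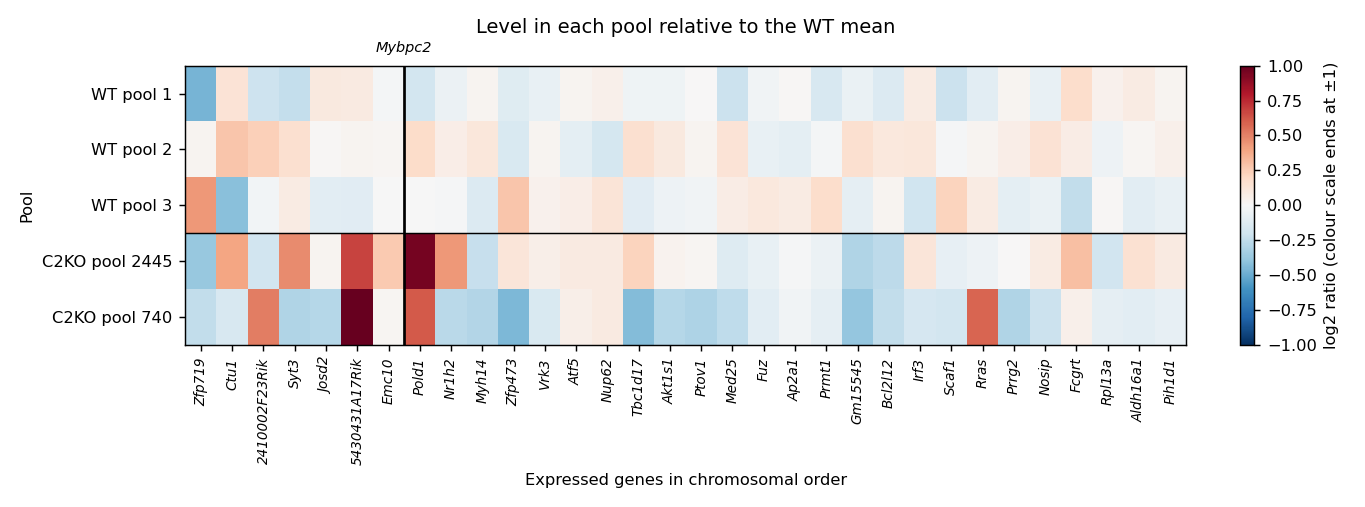
Log2 ratio of each pool's level to the mean of the WT pools (colour) for 32 expressed neighbours in chromosomal order, with Mybpc2 at the vertical line. 5430431A17Rik and Pold1, on either side of the line, are red in both C2KO pools, and pool 740 is below pool 2445 for 25 of the 32 genes.

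In many of these genes the C2KO pools differed from each other, on either side of WT. Pool 740 was below all WT pools for 19 of the 35 genes and above them for 5, whereas pool 2445 was below for 6 and above for 13. Over all 10107 expressed genes, pool 740 was below all WT pools for 35.7% and above them for 28.4%, and pool 2445 for 27.5% and 29.9%. The difference between the neighbours and these shares was not tested. With pool 740 alone as C2KO the median log2 fold change of the 35 was -0.17, and with pool 2445 alone it was 0.04. Tbc1d17, a GTPase-activating protein for Rab proteins, was at 57.6 to 69.9 CPM in WT, and at 73.0 and 46.2 in C2KO pools 2445 and 740. The small GTPase gene Rras was high in pool 740 alone, at 8.04 CPM against 4.98 to 5.69 in the other pools, and stood at 7.55 there without the 6 fibres rich in fibroblast markers.

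By role, no list had a called gene. Of 10 expressed genes for transcription and RNA, 2 were above 0 and 8 below, with a median log2 fold change of -0.11. Of the 35 neighbours 42.9% were above 0, and of all expressed genes 48.5%. The difference from these shares was not tested. Prmt1, the main protein arginine methyltransferase, was at 46.1 to 58.4 CPM in WT and at 49.6 and 48.3 in C2KO. Of 5 genes for genome upkeep and the nuclear pore, 2 were above 0, Pold1 and the nucleoporin gene Nup62. Nup62 was at 26.1 to 32.3 CPM in WT and 31.4 and 31.5 in C2KO. Vrk3, of the vaccinia-related kinase family, was at 20.3 to 22.03 CPM in WT and 22.2 and 19.1 in C2KO.

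The ribosomal protein gene Rpl13a was at 44.4 to 47.1 CPM in WT and at 40.2 and 43.1 in C2KO pools, lower in both by a log2 fold change of -0.14 ± 0.09 (SE). The 6 growth and ubiquitin signalling genes had a median of -0.08, and Fuz, a planar cell polarity effector among them, was at 18.1 to 20.5 CPM in WT and 18.1 and 17.7 in C2KO. Of the 5 secretory path and membrane traffic genes, 3 were above 0, and Fcgrt, the neonatal Fc receptor, was at 34.2 to 45.7 CPM in WT and at 49.97 and 41.99 in C2KO. Of the metabolic enzyme genes only Aldh16a1 was expressed, at 11.1 to 12.6 CPM in WT and 13.2 and 11.1 in C2KO. None of the 7 immune cell genes was expressed, with 363 counts between them. The antisense gene Gm15545 was lower in both C2KO pools (1.53 and 1.44 CPM, against 1.76 to 2.10 in WT, a change of -0.35 ± 0.24 SE). Its exons share 179 bases with Bcl2l12 on the opposite strand, and both stand among the 9 expressed neighbours with such an overlap, whose counts are uncertain where libraries do not keep strand.

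Several neighbours are transcribed away from each other from starts within 1 kb. Of 10 such pairs, 7 had both genes expressed. In edgeR's fit of the 5 pools the values of both genes had the same sign in all 7, with no change larger than 0.35 on the log2 scale and none called. This depended on the fit, with 5 of 7 of the same sign over fibres with run as a covariate, 4 of 7 without WT pool 2, 5 of 7 without WT pool 3 and 5 of 7 without C2KO pool 740, and 6 or 7 of 7 in the other alternatives. Several values were near 0, such as Aldh16a1 at 0.028 and Pih1d1 at 0.0064, and pairs elsewhere were not counted for comparison. Tbc1d17 and Akt1s1, with starts 145 bases apart, changed by -0.07 and -0.12, and Bcl2l12 and Irf3, 69 bases apart, by -0.25 and -0.03. Emc10 and its partner Fam71e1, 75 bases apart in the files' models, had values of opposite sign, at 0.15 and -0.40, but Fam71e1 was below 1 CPM and neither passed the test.

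Below 1 CPM stood 70 neighbours, 32 of them with any count. Counts of a gene were summed over all fibres of a genotype and given per 1e8 gene counts, with exact intervals at 95% that cover counting error only, not the spread between fibres. All 27 kallikrein genes together had 6 counts. The genes named from here on were picked after their values were seen, apart from Rcn3.

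Lrrc4b, a synaptic adhesion gene 38.4 kb from Mybpc2, had 74 counts in 26 of 27 WT fibres and 2 counts in 2 of 20 C2KO fibres. This is 23.4 per 1e8 in WT (18.4 to 29.4) and 1.04 in C2KO (0.125 to 3.74), a ratio of 0.0442 with an exact interval of 0.00526 to 0.165. The WT pools were at 0.213, 0.234 and 0.279 CPM, and C2KO pools 2445 and 740 at 0 and 0.0209. Every WT pool was therefore above both C2KO pools. The fitted log2 fold change was -4.37, and it was -3.45 without C2KO pool 2445 and -7.64 without C2KO pool 740, where no C2KO count is left and the value depends on the prior count. A WT fibre held at most 7 counts and a C2KO fibre at most 1. In edgeR's test the adjusted p was 0.395 (unadjusted p = 0.0046 over pools, as fitted by edgeR). DESeq2 called it lower (adjusted p = 0.0397), as it did 0.498% of all genes tested. With 2 counts in C2KO, Lrrc4b passed the filter on low counts through the WT pools alone. It was also picked on these values, so these p-values are no independent support. In run 0092 the C2KO fibre had no count of Lrrc4b, and the 7 WT fibres had a median of 0.127 CPM, so the within-run value rests on 1 fibre at a level near 1 count.

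**Figure D4:**
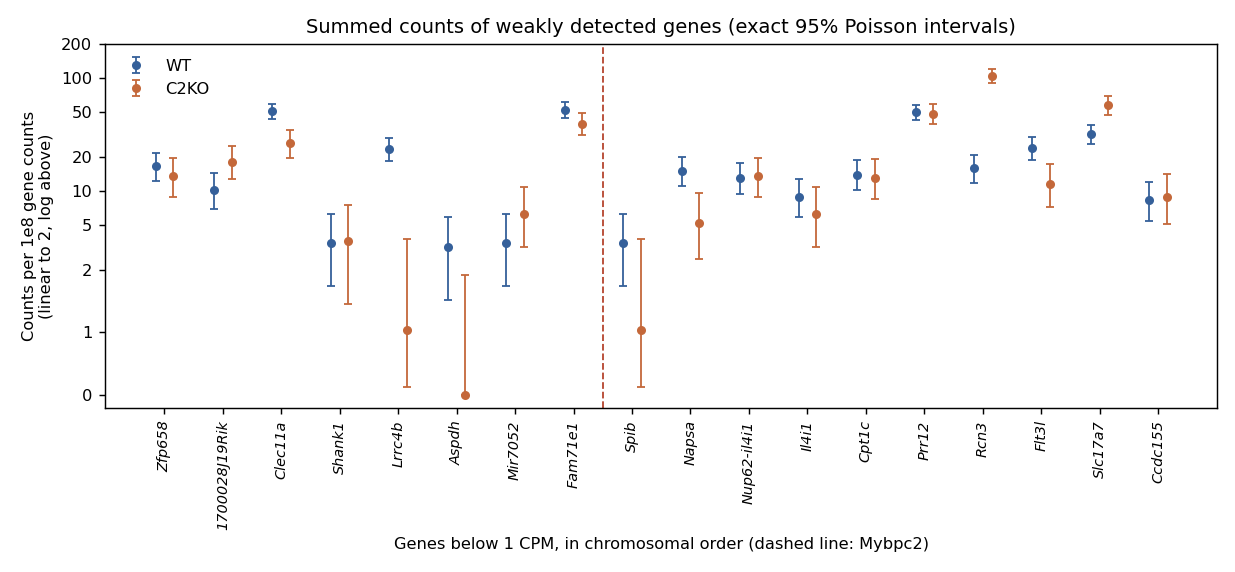
Counts per 1e8 gene counts (vertical axis, linear to 2 and log above) in WT and C2KO fibres for the 18 neighbours below 1 CPM with at least 10 counts, in chromosomal order, with exact 95% Poisson intervals. Lrrc4b is at 23.4 in WT and 1.04 in C2KO, and Rcn3 is at 15.8 and 104.

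The weakly detected genes closest to Mybpc2 had few counts. Fam71e1, 0.564 kb away and of little known function, had 165 counts in WT and 76 in C2KO (ratio 0.753, exact interval 0.566 to 0.995), with an adjusted p of 0.773 in edgeR's test over pools. Spib, an ETS transcription factor of blood cells 1.32 kb away, had 11 and 2 counts (ratio 0.297, exact interval 0.032 to 1.36). The microRNA gene Mir7052, 31.3 kb away, had 11 and 12 counts, a ratio of 1.78 with an exact interval of 0.721 to 4.46. Aspdh, 33.9 kb away, had 10 counts in WT and 0 in C2KO, and the exact interval of its ratio reached up to 0.73. Its counts were few in WT too, with none in WT pool 3. Napsa, an aspartic protease gene 47.8 kb away, had 47 and 10 counts (ratio 0.348, exact interval 0.157 to 0.698). Its fitted log2 fold change was -1.52, and it was -0.85 without C2KO pool 2445 and -2.79 without C2KO pool 740. Clec11a, a secreted growth factor gene 195 kb away, had 160 and 51 (ratio 0.521, exact interval 0.373 to 0.719), and Flt3l, a cytokine gene 606 kb away, had 75 and 22 (ratio 0.48, exact interval 0.284 to 0.78). The fitted log2 fold change of Flt3l was -1.31 and shrank to -0.57 without WT pool 3, which held 0.541 CPM against 0.229 and 0.113 in WT pools 1 and 2. A ratio above 1 was found for Slc17a7, a vesicular glutamate transporter, with 100 and 111 counts (ratio 1.82, exact interval 1.37 to 2.40). It was also found for 1700028J19Rik, 266 kb away, with 32 counts in 10 WT fibres and 35 in 8 C2KO fibres (ratio 1.79, exact interval 1.08 to 2.98). The WT pools held 0.0867, 0.158 and 0 CPM of it, both C2KO pools held more (0.178 and 0.188 CPM), and its log2 fold change of 1.05 was 1.85 without WT pool 2. None of Napsa, Clec11a, Flt3l, Slc17a7 and 1700028J19Rik passed edgeR's test over pools, and none was called in the other fits over pools.

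Rcn3, a calcium-binding protein of the secretory path, had the highest ratio of the 18 genes plotted, with 50 counts in WT and 201 in C2KO (ratio 6.57, exact interval 4.80 to 9.15). It rested on a few fibres. A count was found in 12 of 27 WT fibres and 7 of 20 C2KO fibres, and a single C2KO fibre of pool 740 held 160 of the 201 counts, at 16.1 CPM. Without the 6 fibres rich in fibroblast markers, Rcn3 was at 0.0369 CPM in pool 740 and 0.127 in pool 2445, against 0.0671 to 0.167 in WT pools, and its log2 fold change went from 2.78 (adjusted p = 0.465 in edgeR's test) to -0.38.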

How the data were processed

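Each sample is the RNA of 1 EDL fibre released with collagenase. For each fibre the authors deposited raw counts, as whole numbers, of 24421 genes. Per the file headers and the submitters' processing notes, reads were aligned with HISAT2 2.0.5 and read pairs were counted over exons with featureCounts 1.5.2 (strand option 2, mm10 gene models), and FastQC 0.11.2 and CASAVA 1.4 were also used. No source used here states whether strand was kept by the kit.

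Members and gene lists were chosen with earlier results of these data known. Counts were summed into 5 pools, by sequencing run in WT and by fibre name prefix in C2KO, since fibres are not replicates. The test was run in edgeR 4.0.16 (R 4.3.3; quasi-likelihood, TMM, filterByExpr), which kept 48 of the 105 neighbours, all 35 expressed ones among them. Standard errors are the size of the log2 fold change over the square root of F. Alternatives used DESeq2 1.42.0, limma 3.58.1 (voom), edgeR over fibres with and without run, other normalization and filters, and pools left out. Only edgeR's fit of the pools was tested on simulated data. Distance is the gap between gene spans.

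Genes were named by rule: called genes, the 5 nearest expressed on each side, the 5 most abundant, the 5 with the largest change, up to 8 of at least 5 CPM whose pools or fibres did not overlap, 2 on either side of the 1 CPM limit, and up to 3 of each role list. Totals were 7648762 to 14606631 counts per fibre. No 2 fibres agreed within sampling noise (lowest chi-square per degree of freedom 8.4). Some genes that this rule names are not reported here.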

Additional observations from a re-analysis of the deposited data

How the results depend on the processing

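No paired analysis was possible because fibre numbers only name samples and mark no shared mouse or day between genotypes. Mybpc2 kept its direction and its call in all its alternatives, at -11.7 to -8.49 on the log2 scale. The -11.7 is from the fit with run as a covariate. Every genotype value of that fit rests on the 1 C2KO fibre of run 0092. The count of called neighbours was 0, and was 2 by DESeq2 on pools and 2 by edgeR over fibres (5430431A17Rik and Pold1 in both). With each pool left out in turn it ran from 0 to 1, the 1 being 5430431A17Rik without C2KO pool 2445, a fit in which the lone C2KO pool is assumed to vary like the WT pools. Over all genes, edgeR over fibres called 485 of 10156 and DESeq2 called 197 of 12863, against 6 by edgeR on pools, 8 by limma-voom, 41 over fibres with run as a covariate, and 358 without C2KO pool 2445. The cause was not tested. The count of neighbours above 0 stayed between 10 and 20. Their median log2 fold change ran from -0.171 without C2KO pool 2445 to 0.0366 without C2KO pool 740. Their median size of change was 0.22 with run as a covariate, and 0.119 to 0.241 with pools left out, the highest without C2KO pool 2445. The alternative without fibres rich in fibroblast markers was chosen after seeing the data.

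Of the named neighbours, the following log2 fold changes changed sign, all of them for genes that were not called. These were, in the fit over fibres with run as a covariate, Ctu1 -0.83, Syt3 -0.14, Nr1h2 -0.12, Zfp473 0.54, Vrk3 0.072, Akt1s1 0.071, Fuz 0.16 and Rpl13a 0.20. Over fibres without run it was Ctu1 -7.81e-05. Without fibres rich in fibroblast markers they were Zfp473 0.042, Vrk3 0.00591 and Rcn3 -0.38. Prr12 read 0.00295 with RLE normalization, 0.00666 by limma-voom, 0.000665 by DESeq2, 0.043 without the C2KO fibre of run 0092 and 0.24 without fibres rich in fibroblast markers. With each pool left out in turn, the signs of these genes turned, with ranges of Ctu1 -0.20 to 0.35, 2410002F23Rik -0.20 to 0.50, Syt3 -0.30 to 0.46, Josd2 -0.28 to 0.025, Nr1h2 -0.27 to 0.44, Zfp473 -0.45 to 0.12, Vrk3 -0.15 to 0.056, Tbc1d17 -0.43 to 0.22, Akt1s1 -0.28 to 0.037, Ptov1 -0.30 to 0.019, Ap2a1 -0.069 to 0.019, Prmt1 -0.16 to 0.014, Rras -0.049 to 0.59, Aldh16a1 -0.10 to 0.15 and Prr12 -0.15 to 0.24. The cause was not tested. Counts below 1 CPM limit Lrrc4b and its like to a few counts per fibre, and 5 pools limit every p.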
